A study of Caenorhabditis elegans with 4 samples.

Results

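Chromosome IV of Caenorhabditis elegans carried 245 of the 1854 regions that the authors' combined analysis marked as bound by the transcription factor PEB-1. These peaks were chosen by position alone, as every line of the combined list placed on chromosome IV. The 163 peaks of ChIP replicate 1 and the 24 peaks of ChIP replicate 2 on the same chromosome were used to ask which of them each replicate also marked. All values come from chromatin immunoprecipitation followed by sequencing (ChIP-seq) in hermaphrodites at the second larval stage, L2. The series holds 2 ChIP libraries and 2 inputs, the inputs being chromatin kept aside before the antibody was added. All 4 libraries come from strain OP86, which has the unc119(ed3) allele and the transgene wgIs86, introduced by bombardment. The transgene holds peb-1 with TY1, EGFP and FLAG tags, and unc119. Worms grew at 20 °C and were crosslinked with 2% formaldehyde, and antibodies against GFP pulled down the tagged protein, so the peaks report the transgene product. No label ties the 2 replicates to different cultures of worms, and differences between them may be technical.

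PEB-1, whose zinc finger is of the FLYWCH type, is known for binding an enhancer of myo-2, the gene of a pharyngeal muscle myosin, and for its role in the pharynx, with which the worm feeds. A ChIP-seq peak is a stretch where immunoprecipitated DNA exceeds a control, and it need not be a site that the protein contacts directly. The autosomes of C. elegans have a gene-dense centre with little recombination and 2 arms that are richer in repeats and recombine more. Chromosome IV is also known for carrying most of the worm's piRNA genes, which make small RNAs that silence transposons in the germ line. Which genes lie at the peaks was not analysed here.

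Each peak is an interval on WormBase build WS220 with the authors' q-value, a p-value corrected for the number of candidate regions, and −log10 q is larger for a stronger call. Every q-value in the 3 lists was below 0.01. The lists hold 1854 peaks in the combined analysis, 1095 in replicate 1 and 153 in replicate 2, and the read depth behind them is unknown. Chromosome I holds a surplus of peaks in the combined list that neither replicate list shows, at 26.6 peaks per Mb in the combined list and 10.4 per Mb in replicate 1. Results that set chromosome IV against the rest are also given without chromosome I wherever that changes the call. The span of a chromosome was taken as the end of its last peak in any list, which is 17457097 bp for chromosome IV.

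The first comparison gave the density of peaks on chromosome IV. That this density is low in the combined list was known from earlier results of these data. The p-value for that list therefore describes a known difference. The combined list had 14.0 peaks per Mb on chromosome IV (95% exact Poisson interval 12.3 to 15.9), against 19.5 per Mb on the other 5 chromosomes (18.5 to 20.4). Replicate 1 had 9.34 per Mb on chromosome IV (7.96 to 10.9), against 11.3 per Mb on the others (10.6 to 12.0). In that list chromosome V lay lower, at 7.98 per Mb, and the remaining chromosomes lay higher. Replicate 2 had 1.37 per Mb on chromosome IV (0.881 to 2.05), against 1.56 per Mb on the others (1.30 to 1.85). In each replicate the interval of chromosome IV overlapped that of the others. Chromosome IV held 14.9% of the replicate 1 peaks on 17.4% of the span, a ratio of 0.854 (interval 0.736 to 0.983). This passed the two-sided exact binomial test (adjusted p = 0.0471). The ratio in replicate 2 was 0.900 (0.592 to 1.29) and did not pass. In the combined list chromosome IV held 13.2% of the peaks on 17.4% of the span, a ratio of 0.758 (interval 0.672 to 0.851, two-sided exact binomial test, adjusted p = 1.02e-05 over 11 tests). Chromosome V had 13.6 peaks per Mb (12.0 to 15.2), and its interval overlaps that of chromosome IV. Chromosomes II and III had 18.5 and 18.9 per Mb. Without chromosome I the ratio for chromosome IV was 0.822 and still passed the test. Among the combined peaks that overlap a peak of at least 1 replicate, 141 of 935 lay on chromosome IV, a ratio of 0.865 (interval 0.737 to 1.01), which did not pass (adjusted exact p = 0.0910).

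The low density was not spread evenly along the chromosome. At the density of the other chromosomes, the span of chromosome IV would hold 340 combined peaks, and the difference from the 245 it held was -94.7. In 1 Mb bins numbered from the left end, the 17 full bins held from 2 to 24 combined peaks, with a median of 15. In 5 bins the exact Poisson interval lay wholly below the density of the other chromosomes, and in 0 bins it lay wholly above. In bins of 0.5 Mb, 1 bin lay wholly above, from 5500001 to 6000000, with 22 peaks or 44.0 per Mb (27.6 to 66.6). The 5 low 1 Mb bins held 29 peaks in all, a difference of -68.3 from the density of the rest, which is 72.1% of the whole shortfall. These bins were picked by the same low counts, so a large share follows by construction. Bin 16 held 2 peaks (interval 0.242 to 7.22), bin 17 held 3 (0.619 to 8.77), bin 4 held 5 (1.62 to 11.7), bin 14 held 9 (4.12 to 17.1) and bin 7 held 10 (4.80 to 18.4). Against the 14.0 per Mb of chromosome IV itself, bins 4, 16 and 17 lay wholly below, and bins 7 and 14 included it. Bin 6, with 24 peaks (15.4 to 35.7), lay wholly above it. The intervals were not adjusted for the number of bins. Set against the rest without chromosome I, at 17.9 peaks per Mb, 4 bins lay wholly below and again 0 above. In replicate 1 the intervals of bins 4 (3.45 to 15.8) and 7 (4.12 to 17.1) included the 11.3 per Mb of the other chromosomes. Those of bins 14, 16 and 17 lay wholly below it.

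The right end of the chromosome was the emptiest stretch. Beyond 15 Mb, the last 2.46 Mb held 9 combined peaks, or 3.66 per Mb (1.67 to 6.95), against 236 peaks at 15.7 per Mb (13.8 to 17.9) in the first 15 Mb. This stretch accounts for -38.8 of the difference of -94.7, or 41.0%, and for 52.2% when chromosome I is left out of the density of the rest. Replicate 1 was sparse there as well, with 8 peaks or 3.26 per Mb (1.41 to 6.42), against 155 peaks or 10.3 per Mb before it. Replicate 2 had 0 peaks beyond 15 Mb, with an exact Poisson interval up to 1.50 per Mb, against 1.56 per Mb on the other chromosomes. The 3 longest gaps of the combined list on chromosome IV lay in the same stretch, at 15646778 to 16389249 (742 kb), 15039741 to 15646768 (607 kb) and 16787988 to 17249776 (462 kb). They held 2, 1 and 0 replicate 1 peaks in that order. Chromosomes II and V had longer combined gaps, up to 992855 and 828232 bp, while the longest on I, III and X were shorter than 742 kb. The boundary at 15 Mb was drawn after the bins were seen, so these values are a description. Leaving out the emptiest stretch raises the ratio of share to span by construction. Up to 15 Mb it was 0.833 with chromosome I among the others, and 0.900 (interval 0.797 to 1.01) without it.

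The peaks of that stretch were few. Their median −log10 q was 2.51 in bin 16, 2.74 in bin 17 and 3.32 in bin 18, against 3.10 over the chromosome. The strongest was at 16492186 to 16492742, with q = 3.49e-09 in the combined list and 9.95e-10 in replicate 1, and it ranked 6 among the combined peaks of the chromosome. Of the other 8 combined peaks there, 4 overlapped a replicate 1 peak, and all 4 lay in the partial last bin, at 17249777 to 17249904, 17278367 to 17278691, 17280498 to 17280855 and 17457068 to 17457097. The 4 remaining peaks overlapped neither replicate, and 2 of them, in bin 16, were 31 bp and 9 bp wide. The combined and replicate 1 lists were thus sparse in the stretch. Replicate 2 had 0 peaks there, but it had 0 peaks in 8 of the 18 bins. Its longest gap on chromosome IV was 2634718 bp, longer than this stretch of 2.46 Mb.

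**Figure D1:**
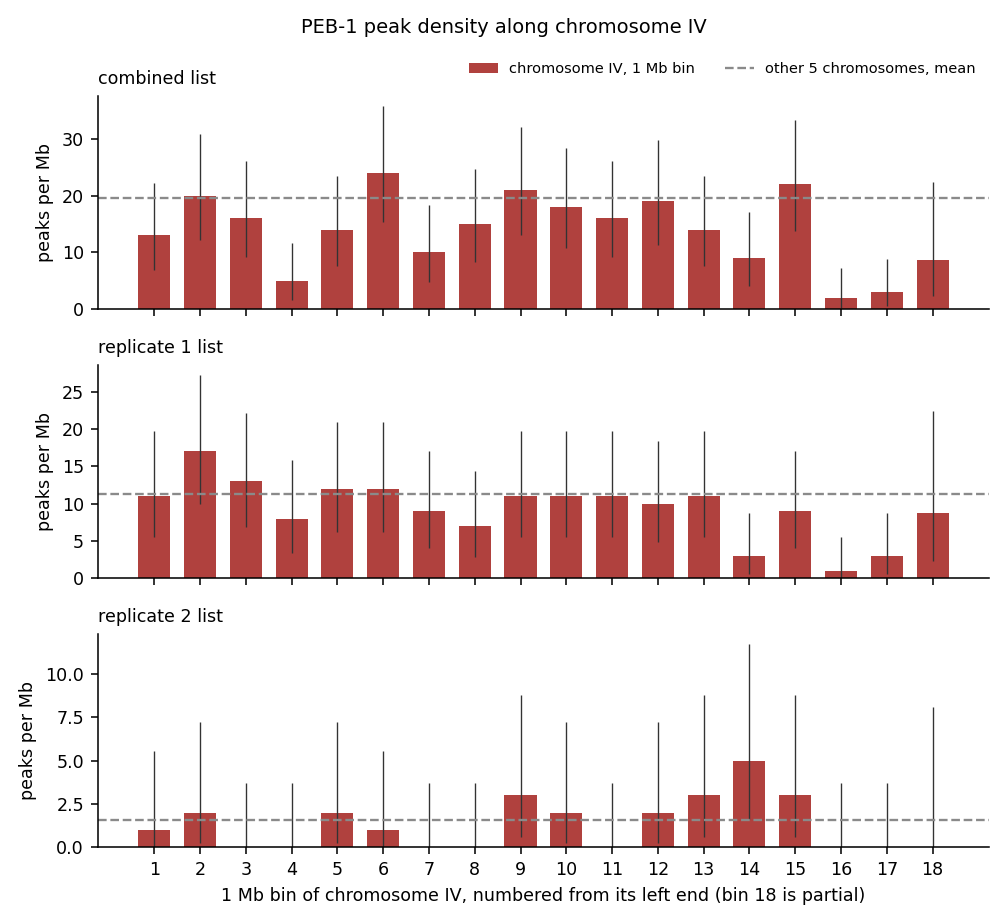
PEB-1 peaks per Mb in 1 Mb bins of chromosome IV, numbered from the left end, in the combined, replicate 1 and replicate 2 lists, with 95% exact Poisson intervals as lines. The dashed line is the mean density of the other 5 chromosomes in the same list (19.5, 11.3 and 1.56 per Mb). In the combined list bins 16 and 17 held 2 and 3 peaks, and bins 4, 7 and 14 were also low.

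In the other bins the interval included the density of the rest. Bin 6 held 24 combined peaks, the most on the chromosome, bin 15 held 22 and bin 9 held 21. Replicate 1 was fullest in bin 2, with 17 peaks, and its lowest full bin was bin 16, with 1. The lists differed in detail. Bin 6 had 24 combined and 12 replicate 1 peaks, while bin 4 had 5 combined and 8 replicate 1 peaks. Replicate 2 had its most peaks, 5, in bin 14, where replicate 1 had 3 and the combined list 9, and it had 0 peaks in 8 of the 18 bins.

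The second comparison cut each chromosome into 3 equal segments and set each segment of chromosome IV against the same segment of chromosomes I, II, III and V. In the left segment chromosome IV had 15.5 peaks per Mb, against 16.2 on the other autosomes, a ratio of 0.955 (interval 0.749 to 1.21, two-sided exact binomial test, adjusted p = 0.800). In the centre segment it had 15.5 per Mb, against 21.4, a ratio of 0.723 (0.570 to 0.907, adjusted exact p = 0.00919). In the right segment it had 11.2 per Mb, against 19.1, a ratio of 0.585 (0.443 to 0.761, adjusted exact p = 0.000139). Up to 15 Mb the right segment had 16.7 per Mb and a ratio of 0.872 (0.648 to 1.16), a description, since that boundary was drawn at the empty stretch and the other autosomes kept their ends. The difference in the centre did not pass without chromosome I (ratio 0.813, adjusted exact p = 0.141) or when neighbouring peaks were joined across up to 1000 bp (0.801, adjusted exact p = 0.0883).

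In replicate 1 the density of chromosome IV was highest on the left and lowest on the right. Its left segment had 12.4 peaks per Mb on chromosome IV, against 8.49 on the other autosomes, a ratio of 1.46 (1.09 to 1.92, adjusted exact p = 0.0166). Its centre segment had 9.45 per Mb, against 13.8, a ratio of 0.683 (0.503 to 0.913, adjusted exact p = 0.0169). Its right segment had 6.19 per Mb, against 10.1, a ratio of 0.615 (0.420 to 0.878, adjusted exact p = 0.0122). Replicate 2 went the other way in the right segment, with 11 peaks or 1.89 per Mb on chromosome IV, against 1.25 per Mb on the others, a ratio of 1.52 whose interval of 0.679 to 3.16 includes 1. Chromosomes differed among themselves too. The left segment of chromosome II had 8.45 combined peaks per Mb and the right segment of chromosome V 10.5, both below the emptiest segment of chromosome IV. In replicate 1 the left segments of chromosomes III and X had 11.1 and 12.6 per Mb, near the 12.4 of chromosome IV. Those of chromosomes I, II and V were lower, at 9.56, 7.27 and 6.88.

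**Figure D2:**
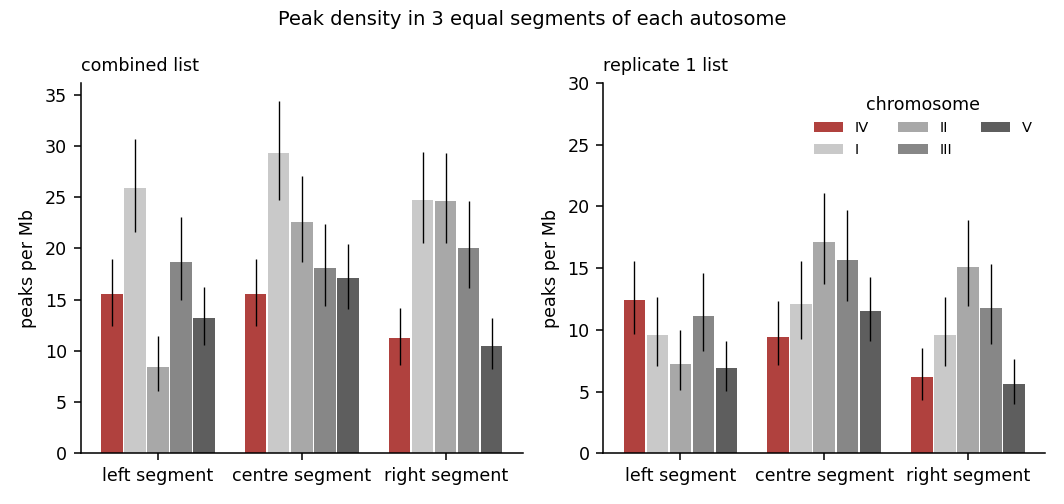
Peaks per Mb in the left, centre and right segment of chromosome IV and of chromosomes I, II, III and V, for the combined list and the replicate 1 list, with 95% exact Poisson intervals as lines. On chromosome IV the combined density was 15.5, 15.5 and 11.2 per Mb from left to right, and the replicate 1 density 12.4, 9.45 and 6.19.

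Of the widths of the peaks on chromosome IV, only the share under 50 bp was tested, and no difference in it was detected. Their median width in the combined list was 150 bp (quartiles 53.0 and 256), against 156 bp (49.0 and 267) on the other chromosomes. By chromosome, the medians elsewhere ran from 118 bp on I to 194 bp on X. Peaks under 50 bp made up 59 of 245 (24.1%, exact binomial interval 18.9 to 29.9), against 409 of 1609 (25.4%) on the others and 25.2% in the whole list (Fisher's exact test, two-sided, adjusted p = 0.800). Together the 245 peaks covered 43.9 kb, or 2513 bp per Mb, against 3855 bp per Mb on the other chromosomes, which ran from 2468 on V to 5770 on X. The 3 widest were at 14032525 to 14034479 (1955 bp), 3232981 to 3233772 (792 bp) and 10821591 to 10822314 (724 bp), and all 3 overlapped a replicate 1 peak and no replicate 2 peak.

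Strong calls were less frequent on chromosome IV. There 28 of 245 combined peaks had a q-value below 1e-05 (11.4%, exact binomial interval 7.73 to 16.1), against 312 of 1609 on the others (19.4%, 17.5 to 21.4) and 18.3% in the whole list (Fisher's exact test, two-sided, adjusted p = 0.00681). The share was lower on chromosome IV than on each of the other 5, which ranged from 15.8% on chromosome V to 22.9% on chromosome I. The interval of chromosome IV included the share of chromosome V, and no single chromosome was tested against it. Replicate 1 had the same direction, with 11 of 163 peaks (6.75%, 3.42 to 11.8) on chromosome IV, against 126 of 932 (13.5%) on the others (Fisher's exact test, two-sided, adjusted p = 0.0318). Replicate 2 had 0 of 24 on chromosome IV, with an exact binomial interval up to 14.2%, against 7 of 129 on the others. The median −log10 q on chromosome IV was 3.10 (quartiles 2.40 and 3.83), against 3.39 (2.60 and 4.60) on the others. Of the 100 strongest combined peaks, 7 lay on chromosome IV.

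One region stood far above the rest of the chromosome. The peak at 14032525 to 14034479 had q = 3.65e-26 and rank 6 in the whole combined list, and replicate 1 marked nearly the same interval, 14032480 to 14034479, with q = 2.65e-25 and rank 7. Replicate 2 had no peak there. The next on chromosome IV lay at 10817040 to 10817410, with q = 1.62e-11 and rank 41 in the combined list and q = 1.53e-10 in replicate 1. The next after it was 3636362 to 3636970, with q = 9.51e-11 in the combined list and 2.83e-09 in replicate 1. It lay in bin 4, with a gap of 385 kb to the next combined peak on its right and one of 325 kb on its left.

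The other 7 of the 10 strongest were weaker by several orders of magnitude than the first. The peak at 11027576 to 11027987 (q = 3.25e-10) and that at 8301939 to 8302301 (q = 2.88e-09) overlapped both replicates, as did that at 682969 to 683420 (q = 1.30e-08). The remaining 4 overlapped replicate 1 only. These were the peak at 16492186 to 16492742 described above, the peak at 1377687 to 1378084 with q = 1.49e-08, that at 4407065 to 4407443 with q = 2.22e-08 and that at 9444454 to 9444800 with q = 4.39e-08. All 10 were thus found in replicate 1 and 3 of them in replicate 2. Their median width was 405 bp, and each lay in a different 1 Mb bin, from bin 1 to bin 17.

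A further comparison asked how many combined peaks the replicates also marked, with an overlap of at least 1 bp. On chromosome IV 133 of 245 overlapped replicate 1 (54.3%, exact binomial interval 47.8 to 60.6), against 758 of 1609 on the others (47.1%, 44.6 to 49.6) and 48.1% in the whole list. This difference of 7.18 percentage points did not pass after adjustment (Fisher's exact test, two-sided, adjusted p = 0.0620). Without chromosome I the others stood at 51.6% and the difference was 2.71 percentage points (adjusted Fisher's exact p = 0.694). Replicate 2 overlapped 19 of 245 (7.76%, 4.73 to 11.8), against 112 of 1609 (6.96%) and 7.07% in the whole list (adjusted Fisher's exact p = 0.800). Both replicates overlapped 11 of 245 (4.49%, 2.26 to 7.89), against 76 of 1609 (4.72%) and 4.69% in the whole list (adjusted Fisher's exact p = 1.0). Neither overlapped 104 of 245 (42.4%, 36.2 to 48.9), against 815 of 1609 (50.7%, 48.2 to 53.1) and 49.6% in the whole list, which passed (adjusted Fisher's exact p = 0.0359). Without chromosome I, 552 of 1208 peaks of the others overlapped neither (45.7%), and the difference from chromosome IV did not pass (adjusted Fisher's exact p = 0.567). Peaks are not independent replicates, so these tests cover counting error only.

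**Figure D3:**
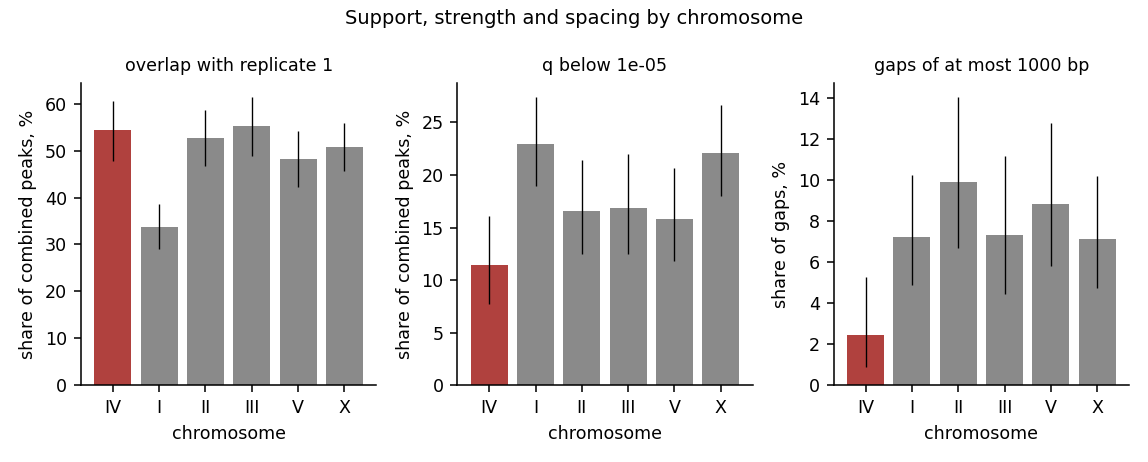
Share of combined peaks that overlap a replicate 1 peak, share with a q-value below 1e-05, and share of gaps between neighbours of at most 1000 bp, by chromosome, with 95% exact binomial intervals as lines. Chromosome IV had 54.3%, 11.4% and 2.46%, and chromosome I stood apart in the first with 33.7%.

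Support followed strength and width within chromosome IV. Replicate 1 marked all of the 20 strongest combined peaks, and replicate 2 marked 6 of them. Replicate 1 marked 42 of the 72 peaks at ranks 51 to 122, and replicate 2 marked 4. Of the weakest 123, replicate 1 marked 51 (41.5%) and replicate 2 marked 4 (3.25%). The combined and replicate lists describe the same ChIP libraries, and a wide peak meets an overlap more easily, so these values carry no test. Median widths were 311 bp for the 11 peaks in both replicates, 208 bp for the 122 in replicate 1 only, 218 bp for the 8 in replicate 2 only and 61.5 bp for the 104 in neither, of which 46 were under 50 bp. Only 3 of those 104 had a q-value below 1e-05. The strongest of them lay at 10906060 to 10906170, with q = 4.40e-06. The next, at 9326483 to 9326493, was 11 bp wide and had q = 4.48e-06, and the last, at 7275265 to 7275312, had q = 7.17e-06.

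The 11 peaks found in both replicates had the highest median strength of the 4 support classes on the chromosome. Their −log10 q ranged from 3.22 to 9.49 with a median of 5.46, against 3.34 for replicate 1 only, 3.10 for replicate 2 only and 2.65 for neither, and 7 of the 11 had a q-value below 1e-05. Besides the 3 among the 10 strongest, the strong ones lay at 5667182 to 5667520 with q = 8.26e-08, at 4454793 to 4455093 with q = 3.01e-06, at 1221135 to 1221445 with q = 3.47e-06 and at 8782221 to 8782551 with q = 4.29e-06. The other 4, above 1e-05, lay at 9918008 to 9918260 with q = 1.53e-05, at 1857844 to 1858043 with q = 1.86e-05, at 9477556 to 9477865 with q = 4.03e-05 and at 4880708 to 4880957 with q = 0.000597. In replicate 2 the 11 had q-values from 0.00163 at 5667241 to 5667355 to 0.00996 at 8782306 to 8782491. They ranked from 34 to 153 among the 153 peaks of that list. The weakest of the 11, at 4880708 to 4880957, joined a replicate 1 peak that ended at 4880869 and a replicate 2 peak that began at 4880875, which did not overlap each other.

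The peaks with replicate 2 support were divided by position on chromosome IV. All 11 peaks found in both replicates lay between 682969 and 11027987, and all 8 found in replicate 2 only lay between 11082990 and 14971633, so the ranges did not overlap. On the other 5 chromosomes the ranges of these classes overlapped. Left of the middle of the span, chromosome IV had 7 peaks in both replicates and 0 in replicate 2 only, and right of it 4 and 8. Replicate 1 marked 58.2% of the combined peaks left of the middle and 49.5% of those right of it. The division was noticed in these lists and rests on 19 peaks, and it was not tested.

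**Figure D4:**
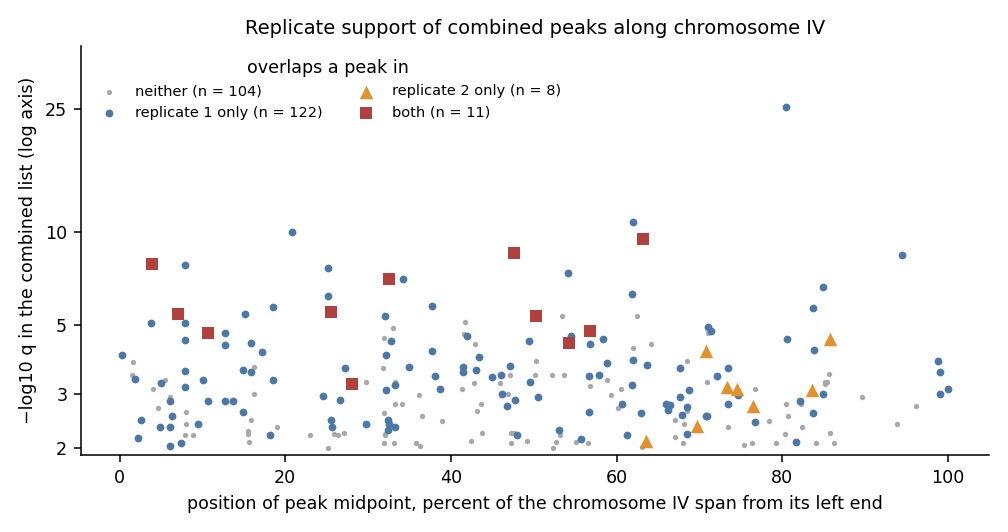
Each of the 245 combined peaks of chromosome IV by its midpoint, as percent of the span from the left end, and its −log10 q on a log axis, marked by the replicate lists it overlaps. The 11 peaks in both replicates have midpoints up to 63.2% of the span and the 8 in replicate 2 only from 63.5%, with no overlap of their ranges, and the region at 25.44 stands alone.

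The 8 peaks found in replicate 2 only mostly lay far from any replicate 1 peak. The nearest replicate 1 peak lay 465 bp away from the replicate 2 peak at 12366785 to 12366921, and from 9707 to 146475 bp away from the other 7. The strongest in the combined list were at 14971511 to 14971633 (q = 2.98e-05 in the combined list, 0.00159 in replicate 2) and 12366729 to 12366984 (q = 7.36e-05 and 0.00656). None of the 8 had a combined q-value below 1e-05, and they ranged in −log10 q from 2.11 to 4.53.

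Some replicate peaks on chromosome IV had no counterpart in the combined list. These were 30 of the 163 replicate 1 peaks, against 18.4% of replicate 1 peaks in the whole list, and 81.6% of replicate 1 peaks had a counterpart both on chromosome IV and in the whole list. The 30 had a median width of 60.5 bp and a highest −log10 q of 3.68, at 4687011 to 4687112. The 133 that had a counterpart had a median width of 200 bp. In replicate 2 they were 5 of 24, against 24 of 153 (15.7%) in the whole list. One of the 5, at 14177359 to 14177451, had the lowest q-value of all replicate 2 peaks on the chromosome (q = 0.00153). No replicate 2 peak on chromosome IV ranked above 28 in its list. Of the 24, 10 overlapped a replicate 1 peak (41.7%), against 76 of 129 on the other chromosomes (58.9%), a difference that was not tested.

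Where both the combined list and replicate 1 marked a place, they drew nearly the same interval. Over 133 pairs on chromosome IV the midpoints lay a median of 12.5 bp apart, 97.0 bp at most, and the combined peak was wider in 67 pairs and narrower in 63. Its −log10 q exceeded that of replicate 1 by a median of 0.50 (quartiles 0.12 and 1.12), against 1.09 (0.44 and 1.92) over 758 peaks of the other chromosomes. By chromosome, the median gain elsewhere ran from 0.78 on II to 2.36 on I. In 20 of the 133 pairs on chromosome IV the replicate 1 call was the stronger.

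The last comparison concerned spacing. Neighbouring combined peaks on chromosome IV lay a median of 32440 bp apart (quartiles 9930 and 90498), against 25848 bp (5768 and 66478) on the other chromosomes. Gaps of at most 1000 bp numbered 6 of 244 on chromosome IV (2.46%, exact binomial interval 0.908 to 5.28), against 128 of 1604 on the others (7.98%, 6.70 to 9.42) and 7.25% in the whole list (Fisher's exact test, two-sided, adjusted p = 0.00307). Chromosome V, at 13.6 peaks per Mb, had 25 such gaps of 283 (8.83%). At up to 5000 bp the shares were 18.4% on chromosome IV and 23.5% on the others (adjusted Fisher's exact p = 0.135), and at up to 500 bp 1.23% and 2.99% (adjusted Fisher's exact p = 0.223). For gaps of at most 1000 bp, replicate 1 had 4 of 162 on chromosome IV (2.47%), against 49 of 927 (5.29%), which did not pass (adjusted Fisher's exact p = 0.258). In that list chromosome I had a similar share, 4 of 156 (2.56%), and the remaining chromosomes had higher ones. At the other extreme, gaps over 100000 bp were 56 of 244 (23.0%) on chromosome IV, against 246 of 1604 (15.3%) on the others and 16.3% in the whole list. Long gaps were not particular to chromosome IV, since chromosome V had 77 of 283 (27.2%) and a median gap of 34693 bp.

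The 6 close gaps gave 6 pairs, and chromosome IV had no group of 3 or more combined peaks joined across up to 1000 bp, while each of the other 5 had from 2 to 4 such groups. The strongest pair, at 6575994 to 6577009, joined peaks of 304 and 331 bp with q = 1.68e-06 and 7.36e-05 across a gap of 381 bp, and both overlapped replicate 1. The other pairs lay at 5564244 to 5565346, 5656616 to 5657426, 11955756 to 11956606, 12371166 to 12371911 and 12816278 to 12816857. In 3 of the 6 pairs both peaks overlapped replicate 1, in 2 only one did, and in the pair at 5564244 to 5565346 neither did. The smallest gap on the chromosome was 346 bp, and no list holds peaks closer than 200 bp.

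**Figure D5:**
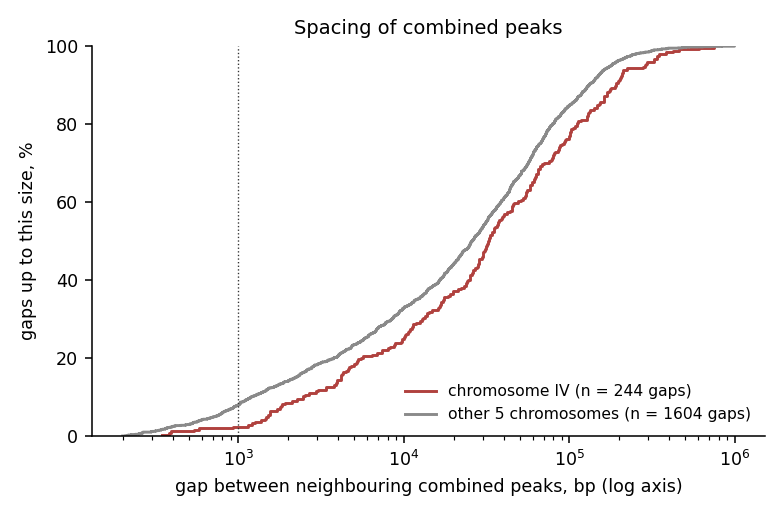
Cumulative share of gaps between neighbouring combined peaks by gap size in bp, on a log axis, for chromosome IV (244 gaps) and the other 5 chromosomes (1604 gaps). The dotted line marks 1000 bp, where the curves stand at 2.46% on chromosome IV and 7.98% on the others.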

How the data were processed

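PEB-1 binding was measured in 2 ChIP libraries, with 2 inputs, grouped by their titles. The authors deposited 1 peak list per ChIP replicate and 1 combined list, each with a q-value per peak. Positions follow WormBase WS220 per the file headers, and the source column names PeakSeq. Not given in the sources used here are the aligner, how the caller was set, how deeply each library was sequenced and how replicates were merged. Because a q-value depends on depth, q-values were compared within 1 list, or between overlapping peaks as a description.

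Peaks on chromosome IV were taken from column 1, and a peak belongs to the bin or segment that holds its midpoint. Exact binomial tests (density) and two-sided Fisher's exact tests (shares) of chromosome IV against the others form 1 family of 11 tests with Benjamini-Hochberg adjustment. They treat peaks as independent. An alternative's adjusted p replaces that result's p among the 11. Intervals are 95% exact Poisson or Clopper-Pearson intervals and cover counting error only. The steps were checked on simulated peaks. The peaks named are the 10 strongest, those in both replicates, the 3 widest, those at the 3 longest gaps and any joined group of 3 or more. Others, such as the joined pairs and those beyond 15 Mb, in replicate 2 only or without a counterpart, were picked once their values were known. The members and tests were chosen with earlier results of these data known. A genome or annotation of WS220 was not used here, so no gene or sequence is given. Python 3.11.15, NumPy 2.4.6, SciPy 1.17.1, pandas 2.3.3 and Matplotlib 3.10.9 were used.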

Additional observations from a re-analysis of the deposited data

How the results depend on the processing

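With the read depth unknown, absence from a list can mean that a region was not detectable there, and replicate 2 has only 24 peaks on chromosome IV. The density ratio of chromosome IV kept its direction under 9 of 10 alternatives and its call under 6. It lost the call at 0.900 in the replicate 2 list, 0.865 among peaks in at least 1 replicate and 0.900 up to 15 Mb without chromosome I, and it was 1.02 against chromosome V alone. The left segment passed only in replicate 1, at 1.46, where chromosome IV was the denser. The centre segment lost its call at 0.813 without chromosome I, 0.801 with neighbours joined, 0.869 in replicate 2 and 0.715 among peaks in at least 1 replicate. The right segment lost it at 0.872 up to 15 Mb and 0.741 among peaks in at least 1 replicate, and turned to 1.52 in replicate 2. The difference in replicate 1 overlap, in percentage points, passed at 8.75 when the midpoint had to lie in the replicate peak, and was 2.71 without chromosome I. The difference in peaks found in neither replicate lost its call at -3.25 without chromosome I, -7.32 for peaks of at least 50 bp and -9.79 for the stronger 50% of each list. The difference in strong peaks lost it at -5.43 in replicate 2. That in close gaps lost it at -2.82 in replicate 1, -2.42 in replicate 2, -1.76 at 500 bp and -5.06 at 5000 bp. The boundary at 15 Mb raises a ratio by construction, and otherwise the cause was not tested. Bins whose interval lay below the rest covered 5.0 Mb at 1 Mb, 3.50 Mb at 0.5 Mb and 9.46 Mb at 2 Mb, and 1 bin lay above it at 0.5 Mb. The alternatives up to 15 Mb, against chromosome V, with peaks in at least 1 replicate, without the leading X region, and close gaps of peaks of at least 50 bp were added after seeing the data. Each result compares chromosomes within 1 list. No paired analysis was possible because peaks were compared between chromosomes and not between ChIP and input.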
